A study of Homo sapiens with 7 samples.

Results

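The regions described here are stretches of HepG2 chromatin where an antibody to PPARα gave a called peak with ERβ co-expressed and none without it, or the reverse. Peaks of 4 libraries on chromosomes 1 to 22 and X were merged wherever they shared at least 1 bp, which gave 52850 regions. A region differed when both libraries of one side had a peak in it and neither library of the other side did. Of the 52850 regions, 1454 (2.75%) had peaks in both PPARα+ERβ libraries only, and 5411 (10.2%) in both PPARα libraries only. These are called PPARα+ERβ-only and PPARα-only regions below, where "only" refers to these 4 libraries. A further 6521 regions had a peak in all 4 libraries and serve as the comparison.

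HepG2 is a human line derived from a hepatocellular carcinoma. In the PPARα group the cells were transfected with an expression vector for PPARα (a tagged human open reading frame) and given 10 µM WY14643, a synthetic PPARα agonist, for 2 hours, starting 48 hours after transfection. The PPARα+ERβ group received the same PPARα vector together with a vector for Flag-tagged ERβ, and DPN, an agonist selective for ERβ, at 10 nM for 45 minutes before the 2 hours of WY14643. Both groups thus overexpress PPARα, and no library without transfection or without agonist entered the comparison. The ERβ vector and DPN were always given together, so the effects of one and of the other cannot be told apart. Each group has 2 libraries, numbered 1 and 2 by order of deposit. Nothing in the labels says that they came from separate cultures, so their spread may be technical. Another group, PPARα with ERα and its agonist PPT (10 nM), was used for one readout, and a sample without antibody was not analysed here.

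PPARα is a nuclear receptor that binds DNA as a heterodimer with RXR, most often at a DR1 element, a direct repeat of the hexamer AGGTCA spaced by a single base. In liver, fatty acids and fibrate drugs activate it, and its known targets serve fatty acid oxidation, lipid transport and ketone body synthesis. ERβ is an estrogen receptor that binds palindromic estrogen response elements as a dimer and can also be held at DNA by other factors, and both receptors draw on common coactivators. In chromatin immunoprecipitation, a peak marks a place where more DNA fragments were recovered than the local background predicts, and it need not be direct binding by the receptor.

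Promoter sequences of 5 genes are shown because the promoters overlapped by the 2 kinds of region differed in base composition. All are the 250 bases before the start site in RefSeq's table for GRCh38.p14, written 5′ to 3′ on the strand of the gene. The first 3 belong to genes with a PPARα+ERβ-only region over the promoter: XPNPEP3 at chr22:40856898-40857147 (plus strand), EIF2S3 at chrX:24054706-24054955 (plus strand) and NDUFA10 at chr2:240025343-240025592 (minus strand). The last 2 are long noncoding RNA genes with a PPARα-only region there: LINC00327 at chr13:23469262-23469511 and LINC01206 at chr3:181952114-181952363, both on the plus strand. Capitals mark the GC box (GGGCGG, read as CCGCCC on the other strand), the cAMP response element (CRE, TGACGTCA) and the CCAAT box (read as ATTGG on the other strand).
XPNPEP3: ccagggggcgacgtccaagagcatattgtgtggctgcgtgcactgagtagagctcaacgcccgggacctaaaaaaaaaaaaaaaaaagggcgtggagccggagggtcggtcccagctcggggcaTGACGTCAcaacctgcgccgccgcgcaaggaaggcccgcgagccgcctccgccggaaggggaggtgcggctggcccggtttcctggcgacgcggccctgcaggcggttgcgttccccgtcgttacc
EIF2S3: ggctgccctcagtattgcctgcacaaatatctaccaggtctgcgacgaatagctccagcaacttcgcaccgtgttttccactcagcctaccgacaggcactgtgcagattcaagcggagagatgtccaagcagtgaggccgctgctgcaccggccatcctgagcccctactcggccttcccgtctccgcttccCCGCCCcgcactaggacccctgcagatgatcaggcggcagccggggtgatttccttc
NDUFA10: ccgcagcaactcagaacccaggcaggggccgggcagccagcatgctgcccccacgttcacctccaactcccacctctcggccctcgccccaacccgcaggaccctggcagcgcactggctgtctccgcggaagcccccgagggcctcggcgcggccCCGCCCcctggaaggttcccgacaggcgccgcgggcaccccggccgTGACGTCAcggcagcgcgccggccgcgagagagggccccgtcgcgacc
LINC00327: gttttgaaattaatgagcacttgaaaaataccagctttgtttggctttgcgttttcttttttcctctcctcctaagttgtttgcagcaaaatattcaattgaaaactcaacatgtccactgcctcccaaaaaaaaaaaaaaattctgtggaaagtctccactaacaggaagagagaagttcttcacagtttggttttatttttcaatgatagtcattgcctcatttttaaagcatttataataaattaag
LINC01206: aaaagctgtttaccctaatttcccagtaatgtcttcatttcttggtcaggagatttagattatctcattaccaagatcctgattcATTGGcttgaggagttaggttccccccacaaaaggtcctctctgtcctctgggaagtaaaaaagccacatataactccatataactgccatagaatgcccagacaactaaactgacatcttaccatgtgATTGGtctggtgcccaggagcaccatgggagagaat

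The first 3 stretches hold 66.0%, 60.8% and 76.4% G or C, with 28, 15 and 30 CpG dinucleotides. The stretch of LINC00327 holds 32.0% G or C and 1 CpG, and that of LINC01206 holds 42.8% and 0 CpG. Capitals mark the letters wherever they occur in a stretch, also outside the region. The NDUFA10 region covers the first 141 bases printed, so the GC box and CRE marked there lie outside it. The first marked CCAAT box of LINC01206 likewise lies outside the region there.

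The PPARα lists held 23805 and 36302 peaks on the chromosomes used and the PPARα+ERβ lists 17457 and 23302. An exact two-sided permutation test over the 4 libraries cannot go below p = 0.333, which is what it gave for peak number, and PPARα library 1 and PPARα+ERβ library 2 were nearly equal. Read totals were not used here, so depth was estimated from the lists. Fold and −log10 p together give the fragments over each summit, with medians of 35 and 50 for PPARα and of 27 and 29 for PPARα+ERβ (p = 0.333, exact permutation test). With the shortest peak width taken as fragment length, the genome-wide level came to 1 fragment per 537 and 471 bp for PPARα and per 537 and 450 bp for PPARα+ERβ. Estimated depth therefore overlapped between the groups.

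**Figure D1:**
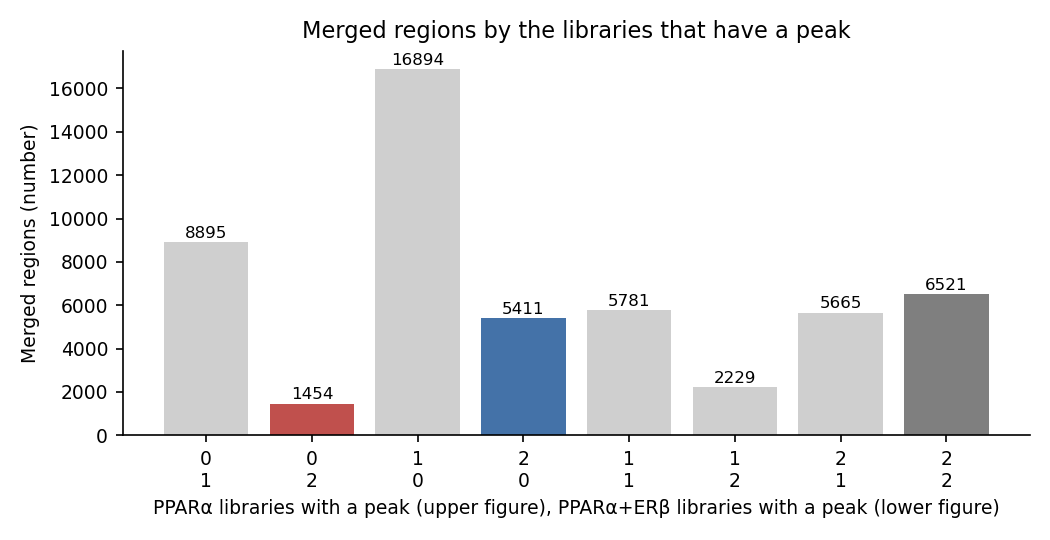
Number of merged regions (y axis) for each combination of PPARα and PPARα+ERβ libraries with a peak (x axis). The red bar is the 1454 PPARα+ERβ-only regions, the blue bar the 5411 PPARα-only regions and the dark grey bar the 6521 regions of all 4 libraries, and regions seen in 1 library alone (16894 and 8895) are the tallest bars.

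The plot of regions by library combination shows how the counts arise. Regions seen in a single library were the most common, 16894 in 1 PPARα library and 8895 in 1 PPARα+ERβ library. Just outside the rule lay 2229 regions that would be PPARα+ERβ-only but for a peak in 1 PPARα library, and 5665 that would be PPARα-only but for a peak in 1 PPARα+ERβ library. That lone peak had a median −log10 q of 8.97 and 8.01. Inside the rule, the weaker of the 2 peaks of a region had a median −log10 q of 5.34 for PPARα+ERβ-only and 8.49 for PPARα-only regions. A peak of the other side lay within 1 kb of 35 PPARα+ERβ-only regions (2.41%) and of 77 PPARα-only regions (1.42%), and the nearest lay 328 and 323 bp away.

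The excess of PPARα-only regions moved with the length of the lists. With every list cut to its 17457 best peaks, 2265 PPARα+ERβ-only and 2791 PPARα-only regions were counted. When peaks were limited to those whose local background was at most 3 times the genome-wide level, PPARα+ERβ-only regions were the more numerous, 486 against 399. Leaving out PPARα library 2 gave 2729 and 8793 regions, and leaving out PPARα library 1 gave 2409 and 18932. Without PPARα+ERβ library 1 the counts were 6922 and 7273, and without library 2 they were 4883 and 9214, as a side with 1 library needs a single peak and also has a single library to exclude regions of the other side.

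**Figure D2:**
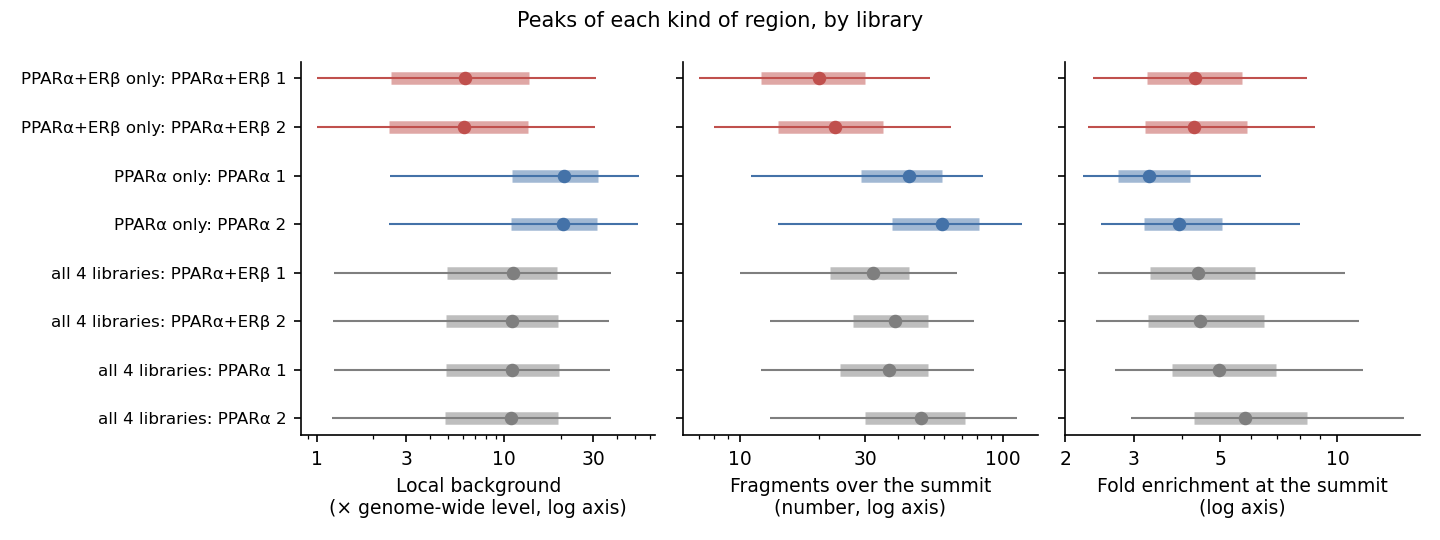
Local background, fragments over the summit and fold enrichment (x axes, logarithmic) of the peaks in each kind of region, by library (rows). Dots are medians, thick bars the quartiles and thin lines the 5th to 95th percentile over regions. The PPARα-only rows lie to the right in background and fragments, and fold is relative to the local background in the first panel.

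The directions differed in the local background and the fragments of their peaks, as the plot of peak values by library shows. In PPARα+ERβ-only regions the local background of the peaks had a median of 6.18 and 6.09 times the genome-wide level in the 2 PPARα+ERβ libraries. In PPARα-only regions it was 20.9 and 20.5 times in the 2 PPARα libraries. Regions of all 4 libraries fell between, at 11 and 10.9 times with PPARα and at 11.1 and 11 times with PPARα+ERβ. At these shared regions the median background was thus nearly the same in each library, and what sets it was not tested. Over all peaks of a list the median was 13.5 and 15.7 times for PPARα and 9.34 and 8.53 times for PPARα+ERβ (p = 0.333, exact permutation test). A median of 20 and 23 fragments stood over the summits of PPARα+ERβ-only peaks and 44 and 59 over those of PPARα-only peaks. The authors' fold enrichment had medians of 4.30 and 4.29 in the former and 3.29 and 3.93 in the latter. Each fold is relative to the local background of its place, and the lists were not compared in fold. PPARα-only regions were thus tall stacks on a high local background, and PPARα+ERβ-only regions smaller stacks on a lower one. These values come from the peaks that the rule used, so they describe the regions and test nothing. The part that background plays in each readout below was not tested beyond the split by background given with it.

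Median widths hardly separated the directions, while broad regions were a larger share of PPARα+ERβ-only regions. The median was 369 bp (quartiles 342 and 409) for PPARα+ERβ-only and 379 bp (347 and 419) for PPARα-only regions, against 436 bp for regions of all 4 libraries, where 4 peaks are merged in place of 2. Broad regions of 600 bp or more were 5.30% of PPARα+ERβ-only and 2.51% of PPARα-only regions. They were 7.02% of regions of all 4 libraries and 3.49% of all merged regions. Median peak width by library was 352 and 374 bp with PPARα and 345 and 356 bp with PPARα+ERβ (exact permutation p = 0.667), so the groups overlapped.

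The widest PPARα+ERβ-only region, 1007 bp, lay 63044 bp from the nearest end of any gene, that of RBM26. The next in width were 939 bp inside MAP3K4, a stress-activated kinase of the JNK and p38 pathways, 887 bp at 16058 bp from the pseudogene RNU6-464P, 880 bp inside PSPH, which makes serine, and 863 bp at 8119 bp from LOC124900540. None of these 5 had a PPARα+ERα peak. Among PPARα-only regions the widest were 1388 bp at a distance of 86847 bp from the pseudogene CYP4F44P, 1159 bp at 2261 bp from the pseudogene PTMAP3, 1131 bp at 66314 bp from LOC107986624, 1103 bp at 4984 bp from the ribosomal protein gene RPL11 and 1090 bp inside KDM2B-DT.

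PPARα+ERβ-only regions lay nearer to genes than PPARα-only regions. A gene span began or ended within 3 kb of 308 of the 1454 (21.2%, Wilson 95% interval 19.2 to 23.4) and 865 of the 5411 (16.0%, 15.0 to 17.0). Regions of all 4 libraries stood at 18.6%, as did all merged regions at 18.7%. The median distance to a gene end was 11732 bp and 15525 bp. Regions over 100 kb from any end made up 5.57% and 7.71%, and summits inside a gene's span 65.5% and 59.5%. Intervals here and below cover counting error over regions, which are not replicates of the treatment. By library, 17.3% and 18.5% of PPARα peaks and 19.2% and 19.5% of PPARα+ERβ peaks were near an end, without overlap between the groups (exact permutation p = 0.333, the smallest possible).

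This difference depended on the background. Among regions with a background of up to 3 times the genome-wide level, 18.6% (15.4 to 22.3) of PPARα+ERβ-only and 21.8% (18.0 to 26.2) of PPARα-only regions were near an end, the opposite order with overlapping intervals. Above 20 times they were 31.2% (25 to 38.1) and 15.5% (14.2 to 16.8).

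Start sites, which need the strand of a gene, set the directions apart more sharply. Of PPARα+ERβ-only regions, 72 of 1385 (5.20%, 4.15 to 6.50) lay within 1 kb of a RefSeq start site. The same held for 89 of 5143 PPARα-only regions (1.73%, 1.41 to 2.12), for 2.67% of regions of all 4 libraries and for 2.22% of all merged regions. Chromosome 8 is left out of these shares because the start site table used here does not cover it. The median distance to a start site was 31061 bp and 43975 bp. PPARα+ERβ-only regions had the larger share in each background range: 3.46% against 0.538% up to 3 times, 5.12% against 1.40% from 3 to 10 times, 4.76% against 1.28% from 10 to 20 times and 10.5% against 2.2% above 20 times. By library, 2.02% and 2.10% of all PPARα peaks and 2.66% and 2.59% of all PPARα+ERβ peaks were that close, again without overlap (exact permutation p = 0.333).

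**Figure D3:**
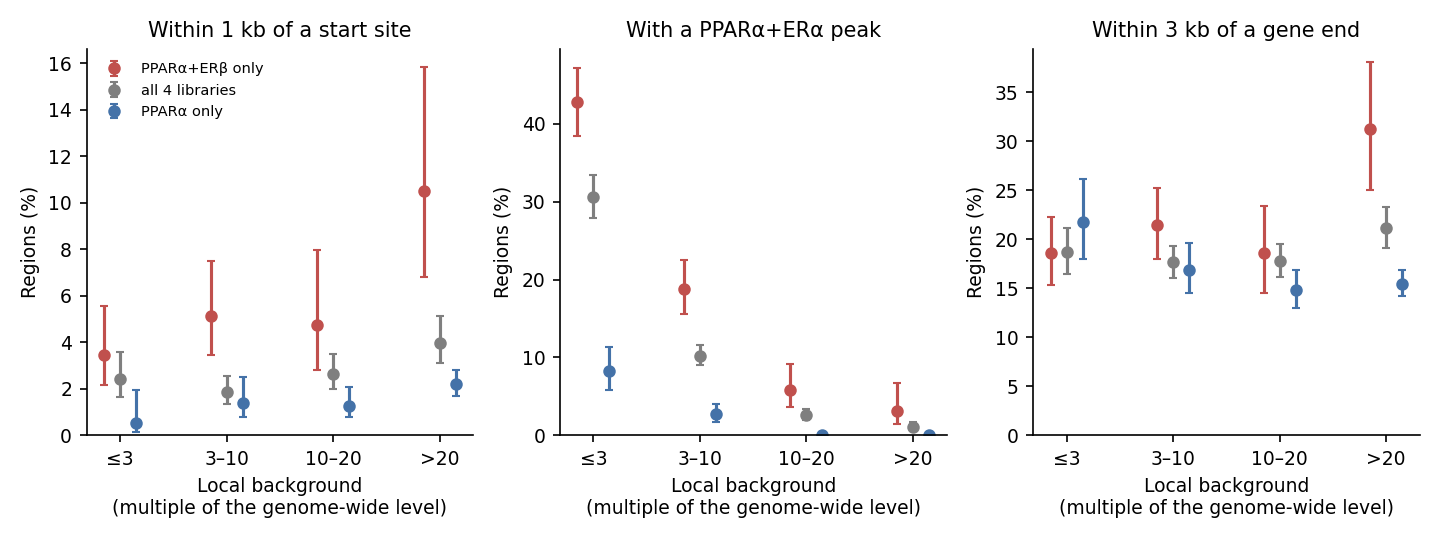
Share of regions (y axes, percent) within 1 kb of a start site, with a PPARα+ERα peak and within 3 kb of a gene end, by the mean local background of the region's peaks (x axes), with Wilson 95% intervals over regions. PPARα+ERβ-only regions (red) lie above PPARα-only regions (blue) in every range of the first and second panels, and below them in the lowest range of the third (18.6% against 21.8%).

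A readout that the rule did not use is the presence of peaks in the 2 PPARα+ERα libraries. A peak of at least 1 of them overlapped 322 of the 1454 PPARα+ERβ-only regions (22.1%, 20.1 to 24.4). It overlapped 55 of the 5411 PPARα-only regions (1.02%, 0.782 to 1.32), 606 of the regions of all 4 libraries (9.29%) and 7.07% of all merged regions. Peaks in both PPARα+ERα libraries were found in 95 (6.53%), 10 (0.185%) and 123 (1.89%) regions of the 3 kinds. The share was thus higher in PPARα+ERβ-only regions than in regions occupied in all 4 libraries. Merging all 6 lists gave 92292 regions in place of 52850, so many PPARα+ERα peaks lay outside every region compared here. The shares are overlaps with those 2 lists and do not measure occupancy with ERα.

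The share with a PPARα+ERα peak also moved with the background. It was 42.8% (38.4 to 47.2) of PPARα+ERβ-only and 8.21% (5.87 to 11.4) of PPARα-only regions up to 3 times the genome-wide level. It was 3.17% (1.46 to 6.75) of the former and 0 of 2873 of the latter (upper bound 0.134%) above 20 times. As the plot of shares by background shows, PPARα+ERβ-only regions had the larger share in each of the 4 ranges. The PPARα+ERα libraries share with the PPARα+ERβ libraries a second transfected receptor and a pretreatment with its agonist, and which of these moves with the shared regions cannot be told apart.

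Near the ends of genes, PPARα+ERβ-only regions reached 403 genes, of which 195 were protein-coding (0.976% of the 19974 tested) and 118 long noncoding. PPARα-only regions reached 1016 genes, of which 385 were protein-coding (1.93%) and 358 long noncoding. Protein-coding genes made up 48.4% and 37.9% of these, against 33.8% of all genes in the table. Both kinds lay within 3 kb of an end at 2 protein-coding genes. With regions inside the span counted as well, 856 protein-coding genes (4.29%) and 2137 (10.7%) were reached, and 245 of them by both kinds, which is 28.6% of the former and 11.5% of the latter.

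**Figure D4:**
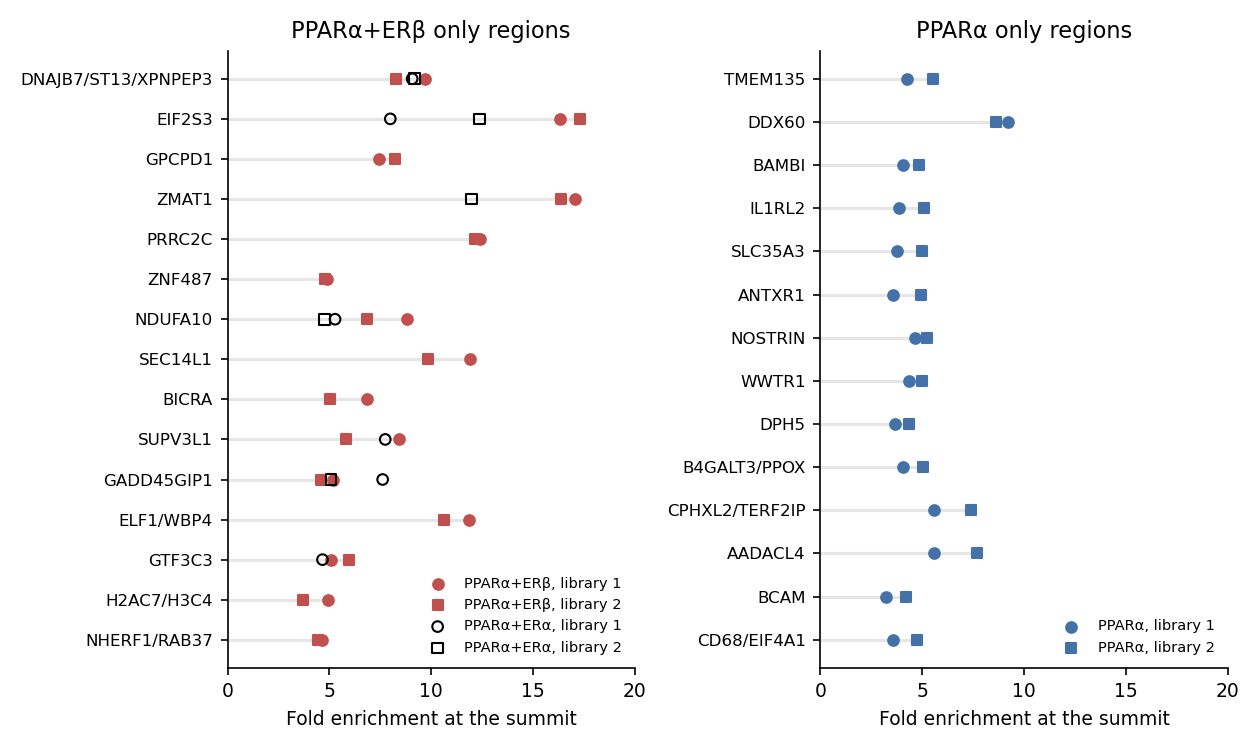
Fold enrichment at the summit (x axes) in each library for the 15 best ranked regions of each direction within 3 kb of a protein-coding gene end (rows, best at the top), with a PPARα-only region left out that is not reported here. Filled symbols are the libraries that define the region and open symbols the PPARα+ERα libraries where these had a peak, which was the case at 7 of the 15 PPARα+ERβ-only and at 0 of the 15 PPARα-only regions.

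Regions near a protein-coding gene end were ranked by the poorer of their 2 within-library positions in −log10 q. The best PPARα+ERβ-only region, chr22:40856968-40857382, covered the start of XPNPEP3, a mitochondrial aminopeptidase, between DNAJB7, a co-chaperone gene, and ST13, which encodes an Hsp70-binding protein. Its summit lay 68 bp upstream of the XPNPEP3 start, and the fold was 9.69 and 8.29 from 170 and 179 fragments. The PPARα+ERα libraries also had peaks there, at 9.06-fold and 9.19-fold. No PPARα library had a peak in it, and the nearest PPARα peak lay 5204 bp away.

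EIF2S3, the gamma subunit of the translation initiation factor eIF2, had the second region at chrX:24054533-24055004, with its summit 312 bp upstream of the start and 98 and 121 fragments. The fold was 16.3 and 17.3 in the PPARα+ERβ libraries and 7.99 and 12.4 in the PPARα+ERα libraries. ZMAT1, a zinc finger gene, had a region at chrX:101932074-101932436 with 17.0-fold and 16.4-fold enrichment from 26 and 27 fragments. Its background was at the genome-wide level, so its high fold rests on far fewer fragments than that of XPNPEP3.

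NDUFA10, a subunit of respiratory complex I, had a region at chr2:240025452-240025960 with folds of 8.80 and 6.83, and both PPARα+ERα libraries had a peak there at 5.28-fold and 4.77-fold. GADD45GIP1, a protein of the mitochondrial ribosome, had one at chr19:12957227-12957580 with folds of 5.19 and 4.59. A peak of a PPARα library lay 377 bp from that region. BICRA, a subunit of a SWI/SNF chromatin remodelling complex, had its region at chr19:47608992-47609392, over the start of a transcript, with 6.83-fold and 5.04-fold enrichment. SUPV3L1, a mitochondrial RNA helicase, had 8.43-fold and 5.81-fold enrichment 1145 bp upstream of its start.

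The other members of the best 15 lay at GPCPD1 (7.46-fold and 8.21-fold), a phosphodiesterase of choline metabolism, at PRRC2C (12.4-fold and 12.2-fold), at ZNF487 (4.88-fold and 4.81-fold) and at SEC14L1 (11.9-fold and 9.85-fold). The region at SEC14L1 had a PPARα peak 645 bp away. GTF3C3, a subunit of the RNA polymerase III factor TFIIIC, had 5.09-fold and 5.97-fold enrichment. A region shared by ELF1, an ETS transcription factor, and WBP4, a spliceosome component, had 11.9-fold and 10.6-fold. A region with 4.93-fold and 3.72-fold, its summit inside H1-12P, lay near the histone genes H2AC7 and H3C4. Another, with 4.61-fold and 4.45-fold, had its summit inside NHERF1 and lay near an end of RAB37. Of these 15 regions 12 lay within 1 kb of a start site, and 7 had a peak in a PPARα+ERα library, 4 of them in both.

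The best ranked PPARα-only region lay inside TMEM135 at chr11:87040662-87041007, with its summit 2922 bp downstream of the start. TMEM135 is a membrane protein of peroxisomes and mitochondria and a member of the list of PPARα lipid genes. Its summit had 89 and 135 fragments and 4.24-fold and 5.50-fold enrichment over a background of 34.4 and 35.0 times the genome-wide level. DDX60, an interferon-induced helicase, had the second at chr4:168219293-168219703 with 9.19-fold and 8.61-fold. It stood out among the 15, whose other members had folds of 7.69 or less.

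BAMBI, a pseudoreceptor that dampens TGF-β signalling, had a PPARα-only region at chr10:28678820-28679178 with 4.05-fold and 4.85-fold. WWTR1, which encodes the Hippo pathway effector TAZ, had one at chr3:149725970-149726374 with 4.33-fold and 5.00-fold. Both lay on a background of 26.6 times the genome-wide level or more in both libraries.

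Others were at IL1RL2, a receptor for IL-36 (3.88-fold and 5.11-fold), SLC35A3, a Golgi nucleotide sugar transporter (3.77-fold and 4.98-fold), ANTXR1, an anthrax toxin receptor (3.58-fold and 4.93-fold), and NOSTRIN, which binds nitric oxide synthase (4.65-fold and 5.24-fold). Regions at DPH5, B4GALT3 with PPOX, AADACL4, TERF2IP with CPHXL2, BCAM, and CD68 with EIF4A1 were also in the set, at 3.20-fold to 5.60-fold in library 1 and 4.18-fold to 7.69-fold in library 2. In contrast to the other direction, 2 of these 15 regions lay within 1 kb of a start site, and 0 had a PPARα+ERα peak. The median background of the 15 was 33.1 and 32.6 times the genome-wide level, against 11.1 and 12.2 times for the best 15 of the other direction.

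Promoter windows, from 250 bases before to 50 after a start site, were overlapped by 21 of 1385 PPARα+ERβ-only regions (1.52%, 0.994 to 2.31) and by 18 of 5143 PPARα-only regions (0.350%, 0.222 to 0.553). The share was 0.724% for regions of all 4 libraries. The first set took in 23 genes, 20 of them protein-coding, and the second 18 genes, 10 of them protein-coding. Median G or C content of the windows was 62.5% with 27.5 CpG in the first and 39.3% with 2 CpG in the second, while all 34961 windows in the table had medians of 58.7% and 14.

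The contrast of the printed sequences is therefore that of the sets as a whole, although each is small. Exceptions existed in both. The window of CUL3 in the first set held 30.7% G or C and that of LOC101927262 in the second 80.7%. Besides the genes named above, the first set had RCC1 and SNHG3, BAZ2B and MARCHF7, NCAPH of the condensin complex, SLC29A1, a nucleoside transporter, SAR1A of vesicle budding and SUPT5H, an elongation factor of RNA polymerase II. The second set had GCG, the gene of glucagon, NREP, ZNF154, NAPEPLD, which makes N-acylethanolamine lipids, AGPAT3 of phospholipid synthesis and OR56B2, an odorant receptor.

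Motifs were searched on both strands of the 300-base windows. A region may cover few bases of a window, such as 9 at ZC3H6. Neither base composition nor motif counts are limited to the bases inside a region. The GC box was in 16 of the 24 windows of the first set (66.7%), in 2 of 19 of the second (10.5%) and in 45.0% of all windows. The hexamer AGGTCA was in 2 (8.33%) and 3 (15.8%), against 13.8% of all. The CRE was in 2 and 0, against 1.85% of all, and the CCAAT box in 5 (20.8%) and 7 (36.8%), against 34.6%. The E-box CACGTG was in 1 and 0 windows and the AP-1 site TGACTCA in 0 and 1. The exact DR1 consensus, which contains the hexamer, and the exact palindromic estrogen response element were in 0 windows of either set, and in 8 and 20 of the 34961 windows. These are matches of letters and not mapped sites. No genome was at hand to read the sequence under the other summits.

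Far from genes the regions of both directions were described by their best ranked members, with folds relative to the local background of each place. The 5 best PPARα+ERβ-only regions over 100 kb from any gene end were inside CACNB2, a calcium channel subunit, SOX5, a transcription factor, and UTRN, the paralog of dystrophin, and 178 and 185 kb from LOC124906150 and LOC105378839. They had 13 to 30 fragments in library 1 and 15 to 33 in library 2, with folds of 7.96 to 12.7 and 7.63 to 9.80. The 5 best PPARα-only regions included one 177 kb from ZWINT, a kinetochore gene, and others inside CTNNA2, LRRC4C and ROBO2. The 5 had 66 to 83 and 97 to 120 fragments and folds of 3.83 to 7.27 and 4.90 to 10.3.

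Some long genes held several PPARα-only regions. CNTNAP2, a neuronal cell adhesion gene of 2304 kb, held 11, NRXN3, a presynaptic neurexin, 10, and LRP1B, DPP10, DLG2 and RBFOX1 held 7 each, with 6 in AUTS2 and in DMD. Per length, CNTNAP2 had 0.477 per 100 kb and NRXN3 0.589, against 0.198 over all protein-coding genes together. Genes named here were picked for many regions, in number or per length, which favours a density above that of all genes. The densest were C9orf85 with 4 regions in 74.4 kb, CACUL1, MOB1B, SEC63 and MIGA1 with 3 each in genes of 78.6 to 99.9 kb. Of 1956 genes holding a PPARα-only region, 120 held 3 or more, as did 175 of 2528 for regions of all 4 libraries and 6 of 751 for PPARα+ERβ-only regions. LRP1B and DPP10 held 7 and 6 regions of all 4 libraries, close to their PPARα-only numbers.

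PPARα+ERβ-only regions were fewer in number, and fewer genes held several of them. At most 4 lay in a gene, in the fragile site gene FHIT, which also held 4 PPARα-only regions. FHIT had 0.266 PPARα+ERβ-only regions per 100 kb, against 0.0629 over all protein-coding genes together, and it too was picked for its number of regions. Whether the kinds differ in clustering once their numbers are allowed for was not tested. ACYP2, EYS, CTNNA2, CDH13 and PPP2R5E held 3 each. PPP2R5E, a regulatory subunit of protein phosphatase 2A, is the shortest of these at 172 kb, and it held 0 PPARα-only regions and 0 regions of all 4 libraries. Another region of the same kind lay within 10 kb of 0.688% of PPARα+ERβ-only, 3.88% of PPARα-only and 6.18% of all-library regions, in the order of their numbers.

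**Figure D5:**
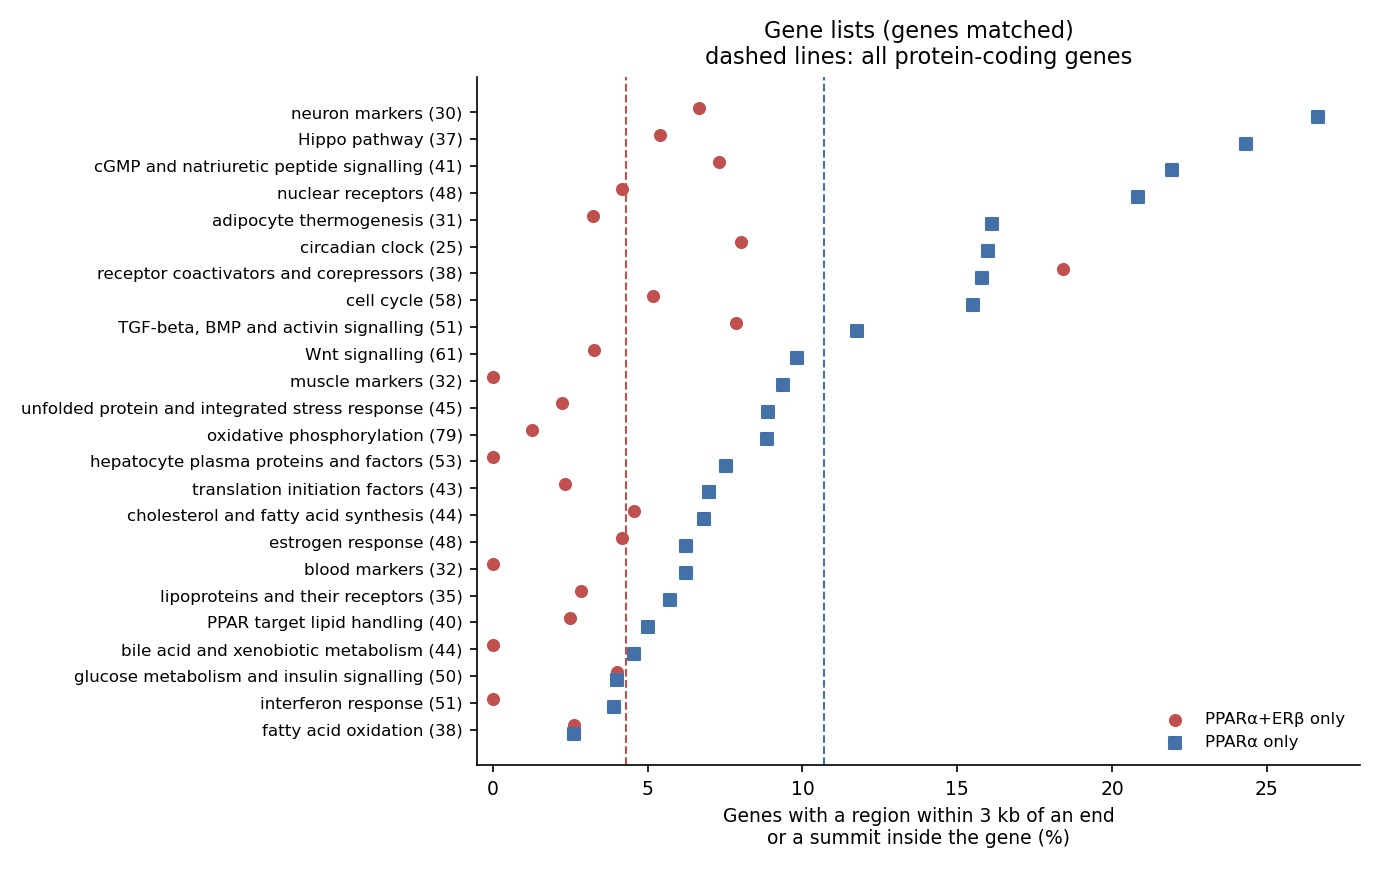
Percentage of the genes of each list (rows, number matched in brackets) that had a PPARα+ERβ-only (red circles) or PPARα-only region (blue squares) within 3 kb of an end or a summit inside the span (x axis). Dashed lines are the same for all protein-coding genes, 4.29% and 10.7%, and receptor coactivators and corepressors are the list where the red circle lies to the right of the blue square.

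Gene function was described with 24 lists of genes, 1030 of whose 1037 symbols matched the table. A gene was counted when it had a region within 3 kb of an end or a summit inside its span. The median over lists was 3.25% for PPARα+ERβ-only and 8.87% for PPARα-only regions, below the 4.29% and 10.7% of all protein-coding genes. A longer gene offers more room for a region, so the median length is given for some of the lists, beside 24.2 kb for all genes.

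Receptor coactivators and corepressors, the proteins that link nuclear receptors to chromatin enzymes and RNA polymerase II, had 7 of 38 genes (18.4%) with a PPARα+ERβ-only region and 6 (15.8%) with a PPARα-only region. These genes have a median length of 99.1 kb, and 12 of them (31.6%) had a region of all 4 libraries. The first were BICRA, ARID1A of the SWI/SNF complex, the Mediator subunits MED1 and MED13L, the p160 coactivators NCOA2 and NCOA3, and PPARGC1A, the coactivator PGC-1α. MED1 had 5.91-fold and 7.63-fold enrichment 21407 bp downstream of its start, and ARID1A 6.54-fold and 6.60-fold. PPARGC1A held one region of each kind, PPARα+ERβ-only at chr4:24379446-24379796 (3.73-fold and 4.45-fold) and PPARα-only at chr4:24103597-24104020 (3.38-fold and 5.13-fold). MED13L and NCOA2 likewise held both kinds, and NCOA6, TBL1X and TBL1XR1 a PPARα-only region.

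Nuclear receptor genes had 2 of 48 (4.17%) with a PPARα+ERβ-only region, ESR1 and NR6A1, close to the share of all genes. With a PPARα-only region there were 10 (20.8%), at a median gene length of 50.9 kb: ESR1, ESRRA, ESRRG, NR2C1, NR3C2, NR6A1, PGR, PPARG, RARB and RORB. ESR1, the gene of ERα, held a PPARα+ERβ-only region at chr6:151670417-151670777 (7.44-fold and 5.57-fold, with PPARα+ERα peaks at 5.40-fold and 5.62-fold). It held a PPARα-only region at chr6:151887042-151887380 (2.94-fold in both libraries). ESR1 also held regions with a peak in all 4 libraries, at chr6:151770028-151770557 and chr6:152024816-152025220. PPARA had a region of all 4 libraries, at 3.69-fold and 3.83-fold with PPARα and 3.34-fold and 3.64-fold with PPARα+ERβ, and no differing one. ESR2, the gene of ERβ, had no region in its span or within 3 kb of it.

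Genes known as targets of PPARα are set here against the 4.29% and 10.7% of all protein-coding genes. Of 38 genes of fatty acid oxidation, 1 had a PPARα+ERβ-only region, ECH1 (3.72-fold and 4.96-fold), and 1 a PPARα-only region, HSD17B4 of peroxisomal oxidation (3.54-fold and 5.23-fold), which is 2.63% each and, at such small counts, near the background for the former kind. Regions of all 4 libraries were at 8 genes of this list (21.1%, against 14.2% of all protein-coding genes), among them HADHA, of the mitochondrial trifunctional protein. Of 40 genes of PPAR-dependent lipid handling, PLIN2, a lipid droplet protein, had a PPARα+ERβ-only region (2.5%, with 2.64-fold and 2.88-fold enrichment), and PNPLA3 and TMEM135 a PPARα-only region (5.0%). LRP2 of 35 genes of lipoproteins and their receptors had a PPARα+ERβ-only region, and LRP5 and LRP8 a PPARα-only region.

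Lipid and glucose synthesis genes were near or below the shares of all genes. Of 44 genes of cholesterol and fatty acid synthesis, ACLY and MLXIP (4.55%) had a PPARα+ERβ-only region and 3 (6.82%), among them GPAM and SCD5, a PPARα-only region. Of 50 genes of glucose metabolism and insulin signalling, FOXO3 and PFKM had the former and IRS2 and PFKFB3 the latter. Oxidative phosphorylation had NDUFA10 alone of 79 genes (1.27%) with a PPARα+ERβ-only region and 7 (8.86%) with a PPARα-only region, among them NDUFS4 and ATP5MC3. The genes of this list are short, with a median length of 10.5 kb. Bile acid and xenobiotic genes had 0 and 2 of 44, the latter being ABCB1 and SULT1E1, an estrogen sulfotransferase.

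Hepatocyte genes, a check of the cell type in so far as peaks can give one, had 0 of 53 with a PPARα+ERβ-only region and 4 (7.55%) with a PPARα-only region, among them C5, CPS1 and HPD. Peaks of one antibody do not show which genes these cells express. Genes of the estrogen response had 2 of 48 (4.17%), KRT8 and SGK1, and 3 (6.25%), ABAT, PGR and XBP1, both at or below the background share.

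Among signalling lists the PPARα-only share was highest for neuron markers, 8 of 30 (26.7%, median length 79.4 kb), the Hippo pathway, 9 of 37 (24.3%, 88.6 kb), and cGMP and natriuretic peptide signalling, 9 of 41 (22.0%, 80.7 kb). Regions of all 4 libraries were at 46.7%, 18.9% and 22.0% of the same 3 lists, against 14.2% of all protein-coding genes. The Hippo genes were WWTR1, VGLL3 and TEAD1 among the transcriptional effectors, the kinases STK3, STK4 and TAOK1, the kinase activators MOB1A and MOB1B, and PTPN14. The PPARα+ERβ-only regions of this list were at TEAD1 (9.40-fold and 8.07-fold) and YAP1 (3.46-fold and 2.36-fold). Members of the cGMP list with a PPARα-only region included the cyclase subunit GUCY1A2, the kinase PRKG1 and the phosphodiesterases PDE1A, PDE3B, PDE6A, PDE10A and PDE11A. NPR3, PDE1A and PDE11A had a PPARα+ERβ-only region (7.32%).

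TGF-β, BMP and activin signalling had 4 of 51 (7.84%) with a PPARα+ERβ-only region: the ligand BMP6, the activin antagonist FST, the receptor TGFBR1 and the transducer SMAD3. At FST and BMP6 both PPARα+ERα lists showed a peak as well, at 7.71-fold and 8.66-fold and at 7.33-fold and 9.75-fold. With a PPARα-only region there were 6 (11.8%), at BAMBI, LTBP1, SKIL, SMAD2, TGFBR2 and TGFBR3. The median gene length of this list is 49.9 kb, and 11 of its genes (21.6%) had a region of all 4 libraries. In the circadian clock list, PER1 and PER2 of 25 genes (8.0%) had a PPARα+ERβ-only region and NPAS2, PER2, PER3 and RORB (16.0%) a PPARα-only region. In PER2 the 2 regions lay at chr2:238245043-238245507 (11-fold and 8.43-fold) and at chr2:238280648-238281021 (5.26-fold and 6.20-fold).

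Cell cycle genes had 3 of 58 (5.17%) with a PPARα+ERβ-only region, AURKB, E2F2 and PLK1, and 9 (15.5%) with a PPARα-only region, among them PCNA, BUB1, CDK6 and CDC25C. Wnt genes had 2 of 61 (3.28%), APC and SFRP1, and 6 (9.84%). Genes of the unfolded protein response had 1 of 45 (CANX) and 4, those of translation initiation 1 of 43 (EIF2S3) and 3, and those of adipocyte thermogenesis 1 of 31 (PPARGC1A) and 5. The interferon response had 0 of 51 and 2, DDX60 and IRF2. Muscle markers had 0 and 3 of 32 and blood markers 0 and 2 of 32. Of the 24 lists, 8 stood above the share of all protein-coding genes for PPARα+ERβ-only regions and 9 for PPARα-only regions.

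By chromosome, PPARα+ERβ-only regions took a larger share than PPARα-only regions on chromosome 16 (5.16% against 2.92%, a ratio of 1.77) and chromosome 20 (4.06% against 2.64%, a ratio of 1.54). The smallest ratios were on chromosomes 12 and 18 (0.698 and 0.696) and X (0.759). The median background of PPARα+ERβ-only peaks did not follow the ratios throughout. It was 9.89 and 9.74 times the genome-wide level on chromosome 16, 12.4 and 14.6 times on chromosome 20 and 2.47 and 2.44 times on X. On chromosome 19, with the third-largest ratio (1.35), it was 3.71 and 3.38 times, and on chromosomes 12 and 18 it lay between 4.91 and 5.56 times.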

How the data were processed

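Of the 6 peak lists, 4 were compared and those of PPARα+ERα were read for overlap. Per the submitters' processing notes, MACS2 2.2.7.1 is among the tools, as are DiffBind 2.16, HOMER 4.11, Bowtie 1.0.1, ChIPseeker 1.18.0 and Trim Galore 0.6.4, with GRCh38.p13 and hg38 as builds. Their settings and the control used are not given in the sources used here. The deposited fold is a ratio of a summit to its local background. The authors' −log10 p and −log10 q are of the summit, and their score column repeats q. The other deposited column is the summit's offset.

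Fragments and background were recovered from fold and −log10 p taken as a Poisson tail, within 0.001 for 100% of peaks. Each deposited fold is relative to the local background recovered for that place from its list, and the control behind that background is not stated. Folds of different lists are given as descriptions, and no difference between them was tested. Peaks outside the chromosomes used (234) were left out. Genes and start sites came from RefSeq for GRCh38.p14, whose chromosome coordinates are those of hg38. SciPy 1.17.1, NumPy 2.4.6, Matplotlib 3.10.9 and pandas 2.3.3 were run under Python 3.11.15, and the steps were tested on simulated data. The members and lists were chosen with earlier results of these data known. The genes named are, per direction, the 15 best ranked near a protein-coding gene end, the 8 with most regions in number and per 100 kb, the 5 widest and 5 best far regions, up to 4 best members of each list, the 6 best ranked promoters overlapped, and PPARA, ESR1 and ESR2. Further list members and promoters are named to complete a count, chosen after their values were seen. Some genes that the rule names are not reported here.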

Additional observations from a re-analysis of the deposited data

How the results depend on the processing

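No paired analysis was possible because the labels give the groups no shared replicate numbers. Of 9 planned values, a threshold of −log10 q of 3, joining peaks only where the overlap covered 25% of both, and joining peaks up to 200 bp apart moved none beyond its limit. With lists of equal length the PPARα+ERβ-only, PPARα-only and all-library counts were 2265, 2791 and 4039, the genes near an end 627 and 520, and the PPARα+ERβ-only width 379 bp. With backgrounds up to 3 times the genome-wide level the counts were 486, 399 and 1051, the genes 109 and 116, and the shares near an end 18.3% and 22.1%. Counting ends within 1 kb gave 188 and 374 genes and 10.9% and 6.38%, within 10 kb 1093 and 3104 genes and 44.8% and 38.7%, and protein-coding genes alone 195 and 385 genes and 12% and 6.30%. Leaving out 1 library at a time gave 2409 to 6922 PPARα+ERβ-only, 7273 to 18932 PPARα-only and 7474 to 10324 all-library regions, with 630 to 1737 and 1368 to 3961 genes, 20.3% to 21.5% and 16.1% to 17.8% near an end, and widths of 337 to 373 bp and 338 to 389 bp. The counts of regions rise by construction, since a side with 1 library needs 1 peak for a region to count and has 1 library to keep the other side's regions out. The cause of the other shifts was not tested.

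The shares near a start site and with a PPARα+ERα peak were added after seeing the data. Both stayed higher for PPARα+ERβ-only regions under each of the 9 alternatives, at 3.05% to 5.50% against 0.525% to 1.99% and at 15.9% to 43.0% against 0.322% to 8.52%. The share near a gene end was higher under 11 of 12 alternatives, the exception being the low background. PPARα-only regions were the wider under 7 of 9, the exceptions being those without PPARα library 1 or 2.

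With 2 libraries a side, the exact permutation test used here cannot go below p = 0.333. A site with few fragments is called with less certainty, and the absence of a peak means that none was called at this depth, not that no fragment was there. The labels spell the PPARα agonist both Wy13643 and Wy14643.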
